A study of Mus musculus with 28 samples.

Results

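The hairpin rows are the entries of the deposited count tables that carry a miRNA precursor as their feature and the class "hairpin". All rows of that class were taken, with no selection on counts. They made up 1282 of the 2320819 rows of the 3 tables and held 627 different names. Of these names 531 were listed for WT mice, 428 for Nrf2-/- mice and 323 for floxed mice, and 255 stood in all 3 tables. Small RNA was measured in 28 libraries of mouse sperm, and each table covers 1 set of mice. The WT set held 4 control libraries without alcohol and 3 alcohol groups, with 4 low-dose, 2 medium-dose and 2 high-dose libraries. The Nrf2-/- set held 4 control and 4 alcohol-exposed (ethanol) libraries, and all 8 lack Nrf2, a transcription factor of the antioxidant response. The last set held 4 Nrf2 flox libraries, with a floxed Nrf2 gene, and 4 Nrf2 LKO libraries, in which the same floxed gene is combined with Albumin-Cre. The Albumin promoter drives Cre in hepatocytes, so the gene is deleted in the liver and the sperm of these mice were not the target. The sources used here give no strain, age, dose amount or number of mice behind a library. Nothing in the labels says that libraries of 1 group came from separate mice, so the p-values below measure the spread between these libraries.

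A miRNA gene is transcribed as a long primary transcript, from which the Drosha complex cuts a hairpin precursor in the nucleus. Dicer then removes the loop of the hairpin in the cytoplasm, and 1 arm of the remaining duplex is kept by an Argonaute protein as the mature miRNA. A read of a small RNA library that matches a hairpin may therefore be a mature miRNA with altered ends, the other arm, a piece of the loop, or an unrelated small RNA from the same locus. Sperm carry miRNAs, fragments of tRNA and the remains of the piRNAs that spermatocytes and spermatids make in large amounts from long piRNA-cluster transcripts.

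The hairpins below are those that led the class or on which the comparisons turn. Each is given 5′ to 3′ from RefSeq on GRCm38.p6, with the mature miRNAs annotated there in capitals. For mir-140 only miR-140-3p is marked, and lower case does not mean that an arm gives no mature miRNA. The sources used here name no build for the authors' alignment, and the position belongs to the RefSeq entry of that name.
mir-451a: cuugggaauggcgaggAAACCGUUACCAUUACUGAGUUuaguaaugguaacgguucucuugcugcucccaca
mir-881: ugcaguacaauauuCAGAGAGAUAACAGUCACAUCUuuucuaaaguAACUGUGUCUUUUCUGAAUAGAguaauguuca
mir-101b: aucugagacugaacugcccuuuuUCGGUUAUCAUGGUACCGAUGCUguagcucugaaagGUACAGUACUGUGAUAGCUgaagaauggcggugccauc
mir-140: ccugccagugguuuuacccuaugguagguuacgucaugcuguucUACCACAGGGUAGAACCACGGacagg
mir-142a: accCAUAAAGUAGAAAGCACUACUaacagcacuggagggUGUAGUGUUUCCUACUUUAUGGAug
mir-7234: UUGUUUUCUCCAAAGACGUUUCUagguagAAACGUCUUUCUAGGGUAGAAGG
mir-7210: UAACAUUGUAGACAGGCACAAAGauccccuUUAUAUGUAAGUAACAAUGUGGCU
mir-7214: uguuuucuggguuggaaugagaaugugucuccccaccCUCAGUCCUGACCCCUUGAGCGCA
mir-16-1: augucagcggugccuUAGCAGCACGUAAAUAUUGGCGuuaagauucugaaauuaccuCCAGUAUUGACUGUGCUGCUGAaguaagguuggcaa
mir-3535: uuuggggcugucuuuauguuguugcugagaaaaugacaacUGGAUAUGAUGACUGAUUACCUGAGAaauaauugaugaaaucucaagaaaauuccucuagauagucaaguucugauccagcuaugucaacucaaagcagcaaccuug
mir-5121: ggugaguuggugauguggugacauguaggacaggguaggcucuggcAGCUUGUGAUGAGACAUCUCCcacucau
mir-155: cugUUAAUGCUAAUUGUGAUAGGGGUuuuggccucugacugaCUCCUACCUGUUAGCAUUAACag
mir-342: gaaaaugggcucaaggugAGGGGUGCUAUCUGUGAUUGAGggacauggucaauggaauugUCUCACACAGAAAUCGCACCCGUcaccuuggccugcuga
mir-196a-1: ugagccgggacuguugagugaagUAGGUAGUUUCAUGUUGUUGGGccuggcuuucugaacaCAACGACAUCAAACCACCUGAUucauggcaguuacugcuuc

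Of the 627 names, 505 matched a RefSeq hairpin. Against GENCODE vM21 on the same build, 193 of them lay in an intron and 178 in an exon on their own strand, 31 were antisense to a gene and 103 were intergenic. Mir451a lies between genes at chr11:78073170-78073241 (+). Mir881 lies at chrX:66801944-66802021 (-), Mir101b in an intron of Rcl1 at chr19:29135279-29135375 (+), and Mir140 within Wwp2 at chr8:107551244-107551313 (+). Mir142 lies in the non-coding Mir142hg at chr11:87756864-87756927 (+), Mir155 in an exon of the non-coding Mir155hg at chr16:84714140-84714204 (+), and Mir342 in an intron of Evl at chr12:108658620-108658718 (+). Mir196a-1 is intergenic at chr11:96265164-96265265 (+).

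Total counts per library ran from 1993933 to 11119711, and between 1623 and 10700 of them fell on hairpins. WT control 1 stood apart, with 75.8% of its counts on structural RNA (mainly tRNA and rRNA) and 9.95% on piRNA clusters, and the main values that rest on it are also given without it. In the Nrf2-/- controls, replicates 1 and 2 had 10.8% and 9.23% of their counts on piRNA clusters while replicates 3 and 4 had 24.7% and 25.7%. All 10 sperm and spermatid marker genes had exon counts in every group. The 38 pairs of libraries within groups all differed by more than counting error. The column of the medium-dose library 1 bears the letter used for the high-dose columns, and the label was followed.

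The hairpin class was a small part of every library, and its mean share was highest in the 2 Nrf2-/- groups. In WT controls it was 0.0227%, 0.1004%, 0.0814% and 0.0996% of all counts. The low-dose libraries held 0.139%, 0.102%, 0.138% and 0.102%, all above the highest WT control. The means were 0.121% ± 0.0210 (SD, n = 4) at low dose and 0.0760% ± 0.0366 (SD, n = 4) in controls, with p = 0.0286 by an exact two-sided permutation test, the smallest p that 4 against 4 libraries allow. The 95% Wilson intervals of single libraries, such as 0.0218% to 0.0236% for WT control 1, are narrow beside this spread and cover counting error only. After adjustment over the 8 feature classes the p was 0.229, so the difference did not pass. Without WT control 1 the difference was 0.0268 percentage points in place of 0.0446. mir-451a, a hairpin of red blood cells, held 26.4% to 35.4% of the class at low dose and 2.46% to 9.60% in controls. Without its counts, an alternative added after seeing the data, the class held 0.0820% ± 0.00978 (SD, n = 4) at low dose and 0.0716% ± 0.0342 (SD, n = 4) in controls, and the groups overlapped. The summed red blood cell genes also had a higher group mean at low dose, at 50.1 against 5.76 counts per 1000000 of all counts. Their part in the class share was not tested. The medium-dose libraries held 0.105% and 0.0957% and the high-dose libraries 0.0802% and 0.156%, which together gave 0.109% ± 0.0326 (SD, n = 4) and an exact permutation p of 0.314 against control (adjusted p = 1).

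In the Nrf2-/- set the share was 0.131% ± 0.0182 (SD, n = 4) in controls and 0.136% ± 0.0269 (SD, n = 4) after ethanol (exact permutation p = 0.771, adjusted p = 0.857). In that set, 3 of the 4 ethanol libraries lay between 0.147% and 0.151% and the fourth was at 0.0956%. Nrf2 LKO libraries held 0.0759% ± 0.0194 (SD, n = 4) against 0.0986% ± 0.0183 (SD, n = 4) in Nrf2 flox (exact permutation p = 0.171, adjusted p = 0.32), and the groups overlapped.

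**Figure D1:**
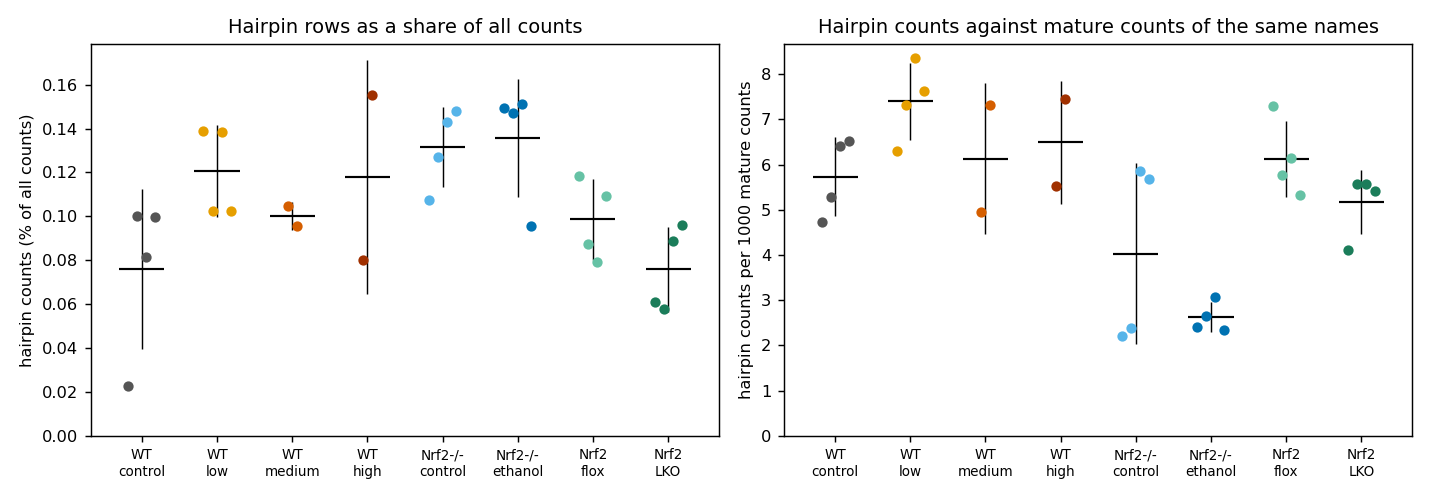
Left, hairpin counts as a percentage of all counts; right, hairpin counts per 1000 mature counts of the same names; each point is 1 library, the horizontal bar is the group mean and the vertical line is 1 SD. All 4 low-dose libraries lie above the 4 WT controls on the left, and on the right the Nrf2-/- controls fall into a pair at 2.20 and 2.39 and a pair at 5.68 and 5.85.

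A handful of hairpins carried most of the class. The 10 largest held 71.6% of the hairpin counts of the WT table, 67.9% of the Nrf2-/- table and 65.4% of the floxed table. It took 4, 5 and 7 hairpins to reach 50% and 29, 46 and 39 to reach 90%. At the other end, 360 of 531, 268 of 428 and 210 of 323 rows had fewer than 10 counts over the whole table, and 59, 95 and 47 rows had a count in every library. Shares below are shares of reads and are not corrected for the length of the hairpin, which runs from 50 to 147 bases.

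The leading hairpin differed between the tables. In the WT table it was mir-451a, whose precursor is cut by Argonaute2 without Dicer and which is made in developing red blood cells. Its mean share was 19.3% and ran from 2.46% to 42.6% over the 12 libraries. In the Nrf2-/- table it was mir-881, a member of the X-linked cluster of miRNAs expressed in the male germ line, with a mean of 27.97% (17.97% to 50.9%). It held 12.2% in the WT table (8.21% to 17.4%) and 6.49% in the floxed table (2.01% to 10.0%). In the floxed table the leader was mir-101b, with 14.4% (4.45% to 21.6%), against 12.2% and 5.89% in the WT and Nrf2-/- tables. The tables were made separately, so these are levels set side by side and were not tested.

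Next by mean share in the WT table came mir-7234 at 7.19%, mir-7210 at 6.74%, mir-142a at 3.52%, mir-7214 at 3.11%, mir-21a at 3.03%, mir-192 at 2.26% and mir-3535 at 2.11%. mir-142a marks blood cells and mir-21a is expressed in most tissues. The Nrf2-/- table had mir-142a at 8.29%, mir-21a at 6.44%, mir-451a at 6.31%, mir-7234 at 3.82%, mir-3535 at 3.41%, mir-7214 at 1.99%, mir-5121 at 1.88% and mir-7210 at 1.87%. The floxed table had mir-140, a miRNA of cartilage, at 8.99% and mir-192, a miRNA of gut, liver and kidney, at 7.22%. It continued with mir-3535 at 6.91%, mir-7234 at 5.53%, mir-142a at 4.75%, mir-7210 at 4.32%, mir-7214 at 3.98% and mir-451a at 2.78%. Compared with the first 10 of the WT table, the Nrf2-/- table had mir-5121 in place of mir-192 and the floxed table had mir-140 in place of mir-21a.

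**Figure D2:**
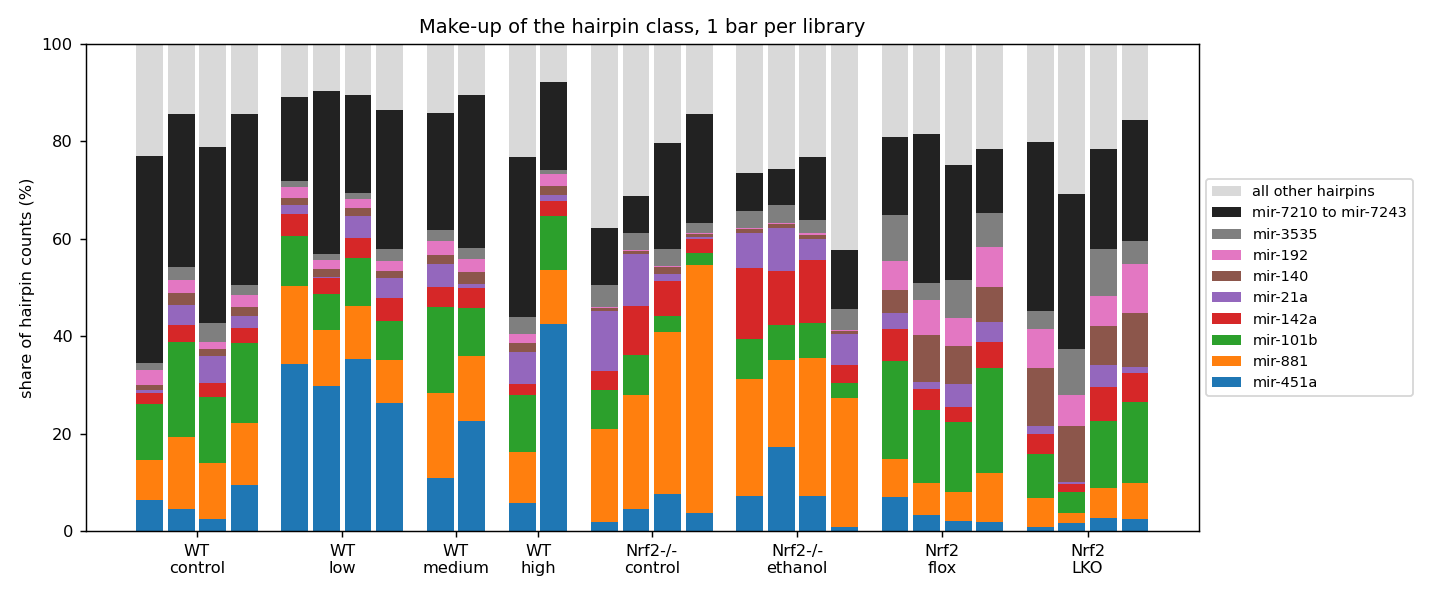
Share of hairpin counts (%) held by 8 named hairpins, by the hairpins mir-7210 to mir-7243 together and by all others; each bar is 1 library and adds up to 100%. mir-451a takes 26.4% to 35.4% of the bar in the 4 low-dose libraries and 2.46% to 9.60% in the WT controls. mir-881, the single hairpin with the largest mean share in the Nrf2-/- libraries, takes up to 50.9% there.

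Families and clusters of miRNAs differed widely in their hairpin counts. The let-7 family, which is abundant as mature miRNA in sperm, had 12 hairpin rows in each table. Their mean share over libraries was 0.405% in the WT table (314 counts), 5.98% in the Nrf2-/- table (2964 counts) and 1.18% in the floxed table (269 counts). let-7a-1 led the family in the first 2 tables, with 74 and 683 counts, and let-7f-1 in the third, with 69. The X-linked germ line cluster had mean shares of 12.4%, 28.2% and 6.53%. Apart from mir-881 its largest member was mir-883a with 64 and 95 counts in the first 2 tables. The rodent-specific Sfmbt2 cluster had 43, 21 and 13 rows and mean shares of 1.03%, 1.32% and 0.585%, led by mir-297a-2 and mir-669c. The miR-17-92 cluster and its paralogues had 10, 9 and 4 rows with 159, 135 and 14 counts, led by mir-18a and mir-20a. Hairpins of the imprinted Dlk1-Dio3 cluster had 218, 74 and 91 counts, with mir-409 at 43, 20 and 51. Of the 3 mirtrons listed, hairpins that splicing releases in place of Drosha, mir-877 alone had rows, with 10, 36 and 20 counts.

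Some hairpins share their position with another class of small RNA. On their own strand, 14 of the 505 placed hairpins overlapped a small nucleolar or small Cajal body RNA gene. RNAs of these kinds guide the chemical modification of rRNA and spliceosomal RNA. These hairpins held 3.53% of the pooled hairpin counts in the WT table (1.56% to 9.37% by library), 8.14% in the Nrf2-/- table and 10.2% in the floxed table. mir-3535 led them in each table and lies inside the nucleolar RNA gene Gm24148 in Ncl, at chr1:86351981-86352127 (-). mir-5121 overlaps Snord33 within Rpl13a at chr7:45126918-45126991 (-), and mir-677 overlaps a small nucleolar RNA annotation within Atp5b at chr10:128085286-128085363 (+). mir-3068, mir-664 and mir-1839 belong to the same group.

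The ratio of hairpin to mature counts was compared by name, with arms and genomic copies summed. Summed over the names, there were 5.73 ± 0.875 (SD, n = 4) hairpin counts per 1000 mature counts in WT controls and 7.40 ± 0.856 (SD, n = 4) at low dose. The low-dose libraries had 6.29, 7.32, 8.35 and 7.64, and the WT controls 4.73, 5.28, 6.41 and 6.52, so the groups overlapped. The log2 difference was 0.37, and 0.29 without WT control 1. It depended on the names summed, and was 2.37 without names whose mature row was at 0 in a library. The medium-dose libraries had 4.95 and 7.32 and the high-dose libraries 5.53 and 7.46. Their log2 difference from control was 0.13, and 1.499 without names whose mature row was at 0 in a library and 0.041 without WT control 1. The Nrf2-/- set had 2.20, 2.39, 5.85 and 5.68 in controls and 2.42, 2.64, 3.08 and 2.34 after ethanol, with 2 of the controls well above the other 6 libraries. The log2 difference was -0.48, and 0.088 as a median over names, so its direction turned. The Nrf2 flox libraries had 6.13 ± 0.840 (SD, n = 4) and the Nrf2 LKO libraries 5.17 ± 0.706 (SD, n = 4), with 1 LKO library at 4.11 and the other 3 between 5.42 and 5.57. As a sum over members, this ratio was described and not tested.

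Single names were spread over several orders of magnitude. Among names with at least 100 hairpin counts, 27 of 43 had more hairpin than mature counts in the WT table, 17 of 42 in the Nrf2-/- table and 17 of 30 in the floxed table. At the low end in the WT table stood mir-16, with 503 hairpin counts against 3830340 mature counts, a ratio of 0.000131. mir-34b had 0.000467, mir-15a 0.00265, mir-30e 0.00530 and mir-9 0.00635. The lowest in the Nrf2-/- table were let-7c at 0.000127, mir-191 at 0.000134, mir-16 at 0.000207, let-7b at 0.000221 and let-7a at 0.000314. In the floxed table they were mir-10a at 0.00324, mir-30e at 0.00657, mir-26b at 0.0137, mir-21a at 0.0240 and mir-140 at 0.0514. These names are classical, conserved miRNAs, for which nearly all reads matched the mature rows.

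At the high end were names with next to no mature counts. In the WT table these were mir-7234 with 5826 hairpin and 4 mature counts, mir-7221 with 380 and 1, mir-7241 with 1653 and 5, mir-7216 with 391 and 3, and mir-7242 with 903 and 7. For Nrf2-/- mice they were mir-881 with 15640 and 4, mir-7232 with 204 and 1, mir-7222 with 171 and 1, mir-7210 with 1036 and 7, and mir-677 with 569 and 11. In the floxed table they were mir-7234 with 1284 and 7, mir-7216 with 118 and 1, mir-703 with 106 and 2, mir-7222 with 592 and 26, and mir-7241 with 362 and 17. A ratio on so few mature counts has a wide counting error, and only its order of magnitude can be read.

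mir-451a sat between these extremes. Its hairpin and mature rows had 20163 and 15357 counts in the WT table, a ratio of 1.31 that ran from 0.955 to 2.47 over the 12 libraries while the count itself ran from 40 to 4305. The ratio was 2.95 in the Nrf2-/- table and 1.59 in the floxed table. Across names, the log hairpin count was nearly unrelated to the log mature count, with r = -0.0144 in the WT table and -0.0684 in the Nrf2-/- table, and r was 0.396 in the floxed table. These are correlations over names that share libraries, given as descriptions.

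Several abundant hairpins had no mature row of their name. mir-101b had none in the WT and Nrf2-/- tables, where its hairpin row held 10342 and 3114 counts. In the floxed table miR-101b-3p was listed, with 1525 counts beside 3859 on the hairpin. Others without a mature row were mir-5128, mir-703, mir-8112 and mir-682 in the WT table, with 221, 196, 75 and 64 hairpin counts. For Nrf2-/- mice they were mir-7234, mir-7241, mir-7242 and mir-7221, with 2096, 529, 382 and 242. In the floxed table they were mir-7221, mir-5131, mir-8098, mir-682 and mir-692, with 194, 112, 25, 20 and 18.

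The miRNA class also held counts under precursor names, and whether these stand for the missing mature counts was not tested. Besides mature names such as miR-16-5p, that class lists rows named like the precursor, such as mir-101b, with 351 such rows for WT mice, 319 for Nrf2-/- mice and 1 for floxed mice. The WT and Nrf2-/- tables had 321 and 275 identifiers in both classes. The precursor-named rows held 0.703% of the miRNA class in the WT table and 0.333% in the Nrf2-/- table. In the WT table mir-101b had 14643 precursor-named counts, mir-451a 28462 and mir-881 14116, all above their hairpin rows. Over names with at least 100 hairpin counts the hairpin row had a median of 2.04 counts per precursor-named count in the WT table and 1.52 in the Nrf2-/- table. The ratio lay between 0.5 and 4 for 43 of 46 and 47 of 49 names, and mir-21a was highest in both, with 2490 against 196 and 3237 against 1. The log counts of the 2 kinds of row went together with r = 0.969 over the WT names and 0.683 over the Nrf2-/- names. Summed over all rows, hairpin and precursor-named counts were close to each other in every WT and Nrf2-/- library. They were 2522 and 2519 in WT control 1, and 7147 and 6722 in ethanol library 1 of the Nrf2-/- set. Whether a read could count in both rows is not stated in the sources used here, so these r values cannot be read as those of separate measurements. The floxed table had 1 such row, so the table and the mice cannot be told apart in any difference of ratios between tables.

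**Figure D3:**
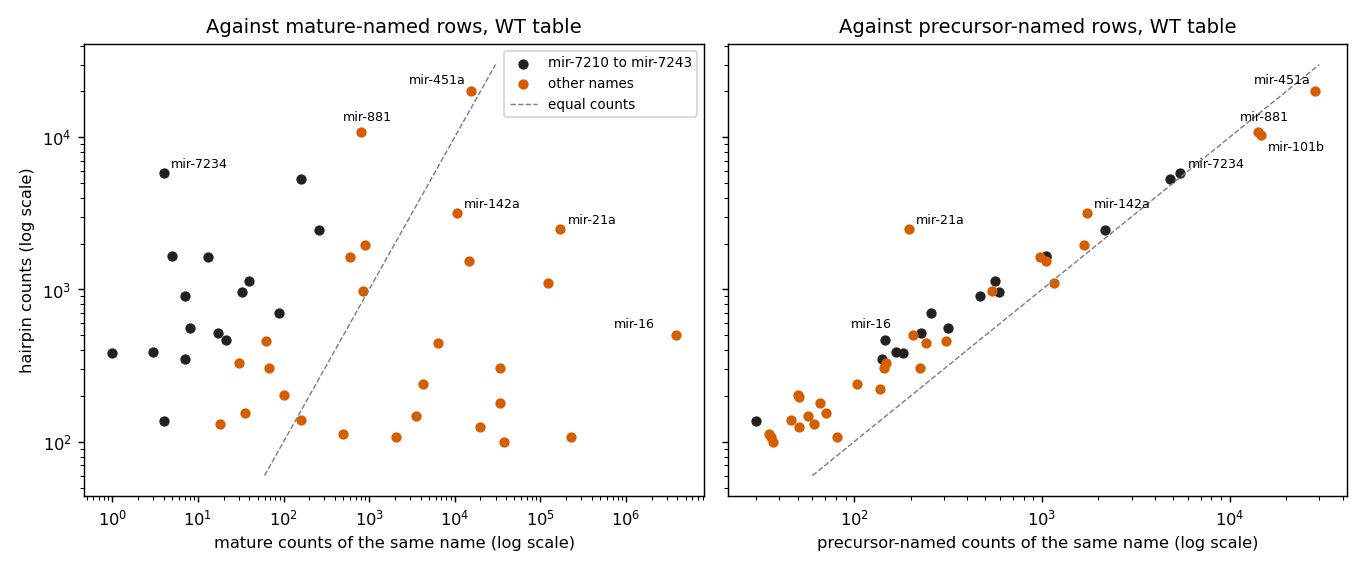
Hairpin counts of the WT table (vertical, log scale) against mature counts (left) and precursor-named counts (right) of the same name (log scale), 1 point per name with at least 100 hairpin counts, black for mir-7210 to mir-7243; the dashed line marks equal counts. The left cloud has no slope (r = -0.0144). The right cloud rises with r = 0.969, at a median of 2.04 hairpin counts per precursor-named count (0.706 to 12.7).

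For the 22 names with at least 100 hairpin counts and a mature row in all 3 tables, the order of the ratios was much alike between tables, with r of the logs between 0.894 and 0.952. The floxed table had the lowest ratio for 16 of them. mir-881 moved most among those named here, from 2.33 in the floxed table to 13.5 in the WT table and 3910 in the Nrf2-/- table. For mir-142a the ratios were 0.0897, 0.302 and 0.843. Its mature counts were at 0 in 4 libraries of each of the WT and Nrf2-/- tables, and the medians over the libraries with mature counts were 0.0862, 0.204 and 0.544.

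Some mature rows stood at 0 in single libraries while the hairpin of that name had counts. A gap was counted where a row stood at 0 although at least 50 counts were to be expected from the other libraries, in rows with counts in at least 3 libraries and at least 10 counts wherever above 0. Few hairpin rows were high enough to show one: 21, 24 and 14 rows, against 155, 136 and 203 mature rows. No gap was seen among these hairpin rows. Mature rows had 136 gaps on 47 rows in the WT table and 54 on 36 rows in the Nrf2-/- table, and none in the floxed table. Precursor-named rows had 11 and 7. Mature and precursor-named gaps whose name had a hairpin row numbered 145 and 47, and 89 and 30 of them had counts on that hairpin. Where the hairpin had at least 10 counts, 20 of 27 and 14 of 19 lay inside the range of the other libraries.

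mir-142a shows this best. Its mature row miR-142a-5p was listed at 0 in WT control 1, low-dose libraries 3 and 4 and both medium-dose libraries, where between 754 and 1494 counts were to be expected. The hairpin row held 58, 442, 298, 323 and 275 counts in these 5 libraries and between 46 and 480 over all 12. Scaled to the library total, 4 of the 5 lay inside the range of the other libraries and WT control 1 lay below it. Among Nrf2-/- libraries the mature row was at 0 in controls 1 and 2 and ethanol libraries 2 and 4, and the hairpin row held 209, 771, 664 and 183 counts there, of which the last lay below the range of the other libraries after scaling to the library total. The hairpin row of mir-142a had no zeros.

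A run of consecutive registry names, mir-7210 to mir-7243, stood out in the class. It was chosen after its values were seen, so it is described without tests. It had 19, 18 and 17 rows and 27.0%, 13.3% and 23.4% of the pooled hairpin counts of the WT, Nrf2-/- and floxed tables. Mature rows of the same names had only 676, 111 and 2272 counts, against 23383, 7074 and 5877 on the hairpins. The entries are short: the 18 placed ones span 51 to 79 bases with a median of 60, against a median of 81 for the other 487. The annotated mature sequences cover a median of 73.0% of them, against 50% for the others. Of the printed members, mir-7234 and mir-7210 have 88.5% and 87.0%, while mir-7214 has 39.3%. Of the 18, 8 are intergenic, 4 lie in an intron, 4 in an exon and 2 are antisense to a gene.

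Some members sit close together. Another member lay within 50 kb of 10 of the 18, and 8 had none. Of the other 487 hairpins, 167 had another of the 487 within 50 kb. On chromosome 17, mir-7214 at chr17:27317035-27317095 (-), mir-7216 at chr17:27328385-27328460 (+), mir-7217 at chr17:27355738-27355799 (+) and mir-7218 at chr17:27358097-27358155 (+) lie in introns or exons of the non-coding genes Gm49793, Gm10505 and Gm49794. mir-7221 and mir-7222 lie at chr2:92592206-92592277 and chr2:92594602-92594676 (+). mir-7241 and mir-7242 lie at chr9:67727717-67727780 and chr9:67729499-67729577 (-). mir-7234 lies in an exon of the non-coding Gm21269 at chr7:73819590-73819641 (+). mir-7232 at chr6:81895590-81895663 (-) has an older hairpin outside the run as its neighbour, mir-468 at chr6:81896599-81896676 (-).

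The level of the run followed the share of piRNA-cluster reads in the library. The run had 315, 294 and 349 counts per 1000000 in WT controls 2, 3 and 4, where piRNA clusters held 34.8%, 32.8% and 37.9% of the counts. It had 96.3 counts per 1000000 in WT control 1, where they held 9.95%. In the Nrf2-/- controls it had 126 and 97.5 counts per 1000000 in the 2 libraries with few piRNA reads and 312 and 330 in the 2 others. As log2 deviations from the group means over 28 libraries, run and piRNA share went together with r = 0.972 and rho = 0.924. Without WT control 1 r was 0.963, and without the 2 libraries farthest from the median 0.952. Within the tables r was 0.993 (WT), 0.983 (Nrf2-/-) and 0.842 (floxed). Set against the piRNA reads themselves, the run had 923 ± 32.2 (SD, n = 4) counts per 1000000 piRNA-cluster counts in WT controls and 915 ± 54.9 (SD, n = 4) at low dose. The other groups had means of 906 (medium), 919 (high), 1191 and 1113 (Nrf2-/- control and ethanol), 814 (flox) and 904 (LKO).

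As a sum, the other hairpins were also set against both shares. Their counts per 1000000 had r = 0.802 with the share of the miRNA class and r = 0.553 (rho = 0.257) with the piRNA share, and the second r was 0.247 without WT control 1. Within the WT, Nrf2-/- and floxed tables the second r was 0.806, 0.337 and -0.0560. The r with the miRNA class was 0.678 without that library, and 0.961, 0.216 and 0.777 within the 3 tables. The run had r = 0.0611 with the share of the miRNA class, a pooled value that hides opposite signs: r was 0.751, -0.870 and -0.104 within the 3 tables and -0.393 without WT control 1. All these values share the library total as denominator and are descriptions without a p.

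Hairpin by hairpin, 29 had at least 100 counts in every table, of which 11 belong to the run. These 11 had r between 0.599 (mir-7230) and 0.939 (mir-7210) with the piRNA share, with a median of 0.854. The other 18 ranged from -0.514 (mir-5121) to 0.809 (mir-468), with a median of 0.162. Without WT control 1 the medians were 0.761 and -0.158. The highest of the 18 was mir-468, the neighbour of mir-7232, followed by mir-140 at 0.764 and mir-881 at 0.653. With the share of the miRNA class the order was the other way round: the run had a median of 0.0509 and the others 0.560, led by mir-101b at 0.888, mir-26b at 0.770, mir-21a at 0.731 and mir-142a at 0.717. Without WT control 1 these medians were -0.306 and 0.385.

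**Figure D4:**
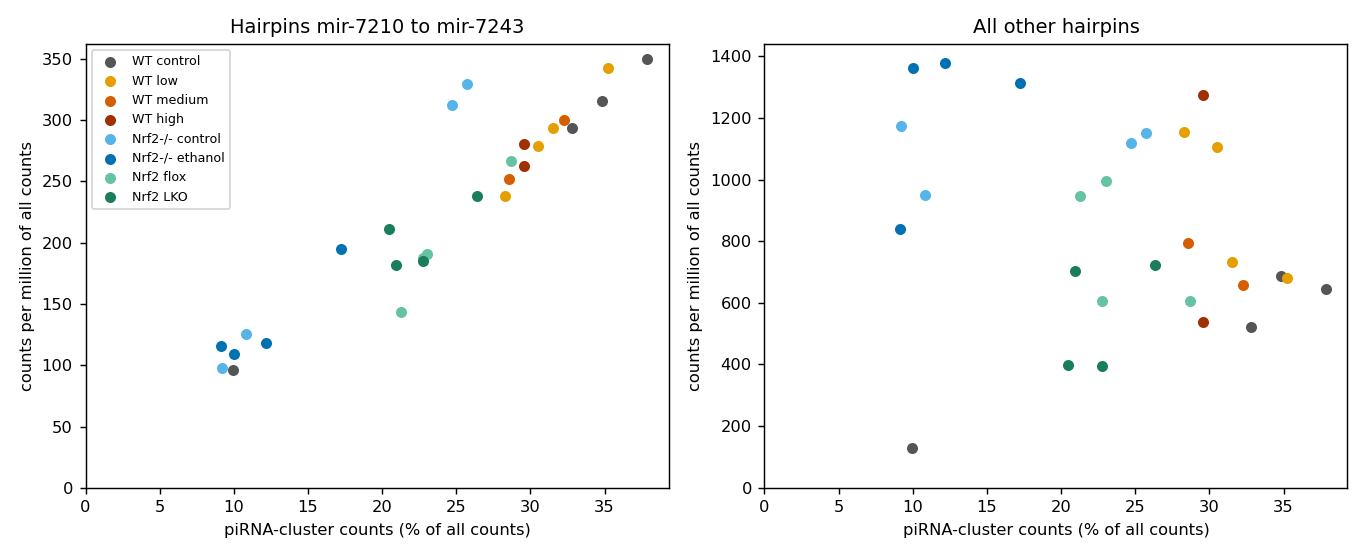
Counts per 1000000 of the hairpins mir-7210 to mir-7243 (left) and of all other hairpins (right) against the share of piRNA-cluster counts (%), 1 point per library, coloured by group. On the left the 28 libraries rise together, from 96.3 counts per 1000000 at 9.95% to 349 at 37.9%; on the right they spread widely at a given piRNA share.

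In the low-dose comparison with WT controls, the hairpins that differed most were mir-5121 and mir-451a, and neither passed. CPM of hairpins are counts per 1000000 counts outside the miRNA class, scaled by the trimmed mean of M-values. The miRNA class is also left out of what is called all features below. mir-451a was at 35.0, 53.9, 17.99 and 107 CPM in the 4 controls and at 567, 370, 540 and 282 in the low-dose libraries. Every low-dose library was above every control. The log2 change was 3.02 (SE 0.89), with an unadjusted p of 0.00885 and an adjusted p of 0.415 by edgeR's quasi-likelihood F test with Benjamini-Hochberg adjustment over 17937 features. DESeq2 gave 3.03 with an adjusted p of 0.0417, and edgeR without its robust option an adjusted p of 0.0784. Without WT control 1 the edgeR change was 2.86 (adjusted p = 0.708).

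The 6 red blood cell genes all had exon counts in both groups. Their sum was 5.76 unscaled CPM ± 5.24 (SD, n = 4; range 1.89 to 13.5) in controls and 50.1 unscaled CPM ± 15.1 (SD, n = 4; range 34.7 to 63.8) at low dose. Unscaled CPM, used for the sums of marker genes, are counts per 1000000 of all counts and are not on the scale of the hairpin CPM. The 4 globin genes, Hba-a1, Hba-a2, Hbb-bs and Hbb-bt, were each higher at low dose without overlap, while Alas2 and Slc4a1 overlapped, and reads of the near-identical Hba-a1 and Hba-a2 may be divided between them. Their part in the result was not tested, and in such bulk samples more cells of a type and more RNA per cell cannot be told apart. The precursor mir-144, which is transcribed together with mir-451a, had no row in the WT table, and mir-486a had 1 count there.

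mir-5121, the hairpin over Snord33, was at 24.1, 8.22, 5.40 and 5.93 CPM in controls and 2.31, 2.37, 3.20 and 3.83 CPM at low dose. The groups did not overlap, and WT control 1 was far above the other controls. The log2 change was -1.92 (SE 0.59, edgeR adjusted p = 0.413) and -1.18 without WT control 1 (edgeR adjusted p = 0.577). DESeq2 gave -1.93 with an adjusted p of 0.0359. mir-142a was at 12.7, 40.8, 20.7 and 34.0 CPM in controls and 74.1, 41.1, 64.2 and 51.9 CPM at low dose, again without overlap, with a log2 change of 1.08 (SE 0.42, edgeR adjusted p = 0.585), and 0.85 without WT control 1. The 5 leukocyte markers, all with counts, summed to 9.51 unscaled CPM ± 5.16 (SD, n = 4) in controls and 16.2 unscaled CPM ± 7.08 (SD, n = 4) at low dose, with overlap. Their part in the result was not tested.

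mir-5128, in an intron of Strbp, had 0.88, 3.19, 0 and 2.67 CPM in controls and 5.09, 4.86, 4.50 and 3.14 CPM at low dose, a log2 change of 1.16 (SE 0.46, edgeR adjusted p = 0.547), and 0.94 without WT control 1. mir-677 had 4.38, 6.54, 5.85 and 8.01 CPM against 3.86, 1.31, 5.09 and 5.75, a log2 change of -0.66 (SE 0.34, edgeR adjusted p = 0.742). The groups overlapped for both hairpins. Of the 531 rows, 54 passed the filter on low counts. By edgeR 0 of them passed an adjusted p of 0.05, where 0.0558% of all features passed. DESeq2 called 2, mir-451a and mir-5121, and the share of all features it called is not given here. At an unadjusted edgeR p under 0.05 there were 4, where 6.94% of all features stood. Without overlap between the groups, 2 were higher and 1 was lower, against 3.3% and 1.94% of all features. Among the 54, 29 had a positive and 25 a negative log2 change, with a median of 0.0090 beside 0.0046 over all features. With the total of all counts as library size the split was 35 to 19 and the medians were 0.11 and 0.18, and without WT control 1 the split was 23 to 31. The abundant germ line hairpin mir-881 had 0.60 (SE 0.48), mir-101b -0.22 (SE 0.46) and mir-7234 0.22 (SE 0.22). Of the run, 16 hairpins were tested, 10 with a positive and 6 with a negative log2 change and a median of 0.033. The direction turned without single libraries: 5 were positive without WT control 3 or without low-dose library 2, and 7 without WT control 1.

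At medium and high dose together, mir-451a was spread widely. It had 136 and 276 CPM at medium dose and 40.4 and 788 CPM at high dose, and 1 of the 4 lay inside the control range. The log2 change was 2.43 (SE 0.87, edgeR adjusted p = 1.0), and it was 0.71 without the high-dose library 2. The red blood cell genes summed to 6.63 and 15.5 unscaled CPM at medium dose and 6.66 and 28.9 unscaled CPM at high dose. Their part in the result was not tested. mir-677 had 2.43 and 3.57 CPM at medium and 4.22 and 4.03 CPM at high dose, all below the 4 controls, with a log2 change of -0.83 (SE 0.34, edgeR adjusted p = 1.0). mir-7242 had 10.4 and 11.1 CPM at medium and 8.83 and 12.8 CPM at high dose against 14.7, 18.6, 13.0 and 13.7 CPM in controls, with -0.49 (SE 0.22, edgeR adjusted p = 1.0). mir-7217 and mir-7221 had log2 changes of -0.48 (SE 0.24) and -0.53 (SE 0.34).

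Of the 54 tested hairpins, 0 passed by edgeR at medium and high dose, as did 0% of all features, and 0 by DESeq2. At an unadjusted p under 0.05 there were 3, beside 2.79% of all features. Without overlap, 0 were higher and 2, mir-677 and mir-7242, were lower, beside 1.15% and 0.552%. Of the log2 changes 28 were positive and 26 negative, and 34 and 20 with the total of all counts as library size. In the run, 12 of 16 were negative with a median of -0.20, beside -3.1e-06 over all features. Without WT control 4 or without high-dose library 1 only 8 of 16 were negative, with medians of -0.0027 and 0.0036. These dose groups and the low-dose group were set against the same 4 controls.

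In Nrf2-/- mice, 46 of the 51 tested hairpins outside the run had a positive log2 change after ethanol, and none passed. With the total of all counts as library size, 37 of the 51 were positive. mir-342, a miRNA of blood cells within Evl, had 5.14, 3.98, 5.04 and 4.80 CPM in controls and 16.2, 11.4, 13.8 and 8.76 CPM after ethanol. All 4 ethanol libraries were above all controls, with a log2 change of 1.40 (SE 0.39, unadjusted p = 0.00394, edgeR adjusted p = 0.777). mir-27b had 2.69, 2.31, 1.38 and 2.74 CPM against 4.47, 7.74, 10.4 and 4.10 CPM, also without overlap, with 1.49 (SE 0.46, edgeR adjusted p = 0.777). mir-155, a miRNA of activated immune cells, had 13.2, 21.2, 8.25 and 2.40 CPM against 40.2, 34.6, 45 and 19.2 CPM. Its lowest ethanol library lay inside the control range, and the log2 change was 1.60 (SE 0.61, edgeR adjusted p = 0.777). mir-331 and mir-1839 had 1.22 (SE 0.49) and 1.10 (SE 0.47), with the same adjusted p and all 4 ethanol libraries above the control mean.

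The leukocyte markers, all 5 with counts in both groups, summed to 2.48 to 21.5 unscaled CPM in controls and 11.5 to 19.4 after ethanol. Their part in these values was not tested. The epididymis markers summed to 38.5 to 1982 unscaled CPM in controls and 217 to 529 after ethanol. Sperm and spermatid markers had 521 unscaled CPM ± 385 (SD, n = 4) in controls and 268 ± 34.9 (SD, n = 4) after ethanol. Of the 428 rows, 63 were tested. By edgeR 0 passed an adjusted p of 0.05, as did 0% of all features, and DESeq2 called 0 as well. At an unadjusted p under 0.05 there were 5, beside 4.68% of all features, and 2 were higher and 0 lower without overlap, beside 2.96% and 2.45%.

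Over the 63, 46 log2 changes were positive and 17 negative, with a median of 0.53, while the median over all features was -0.27. With the total of all counts as library size the split was 37 to 26 and the medians were 0.20 and -0.53. The let-7 family had 10 tested hairpins, all with a positive log2 change and a median of 0.56. let-7c-1 had 8.82, 13.4, 17.4 and 8.22 CPM in controls and 18.7, 13.9, 27.2 and 35.9 CPM after ethanol, and let-7f-1 had 13.5, 13.6, 22.5 and 21.6 CPM against 21.5, 33.6, 33.6 and 29.8. Both overlapped between the groups. With the total of all counts as library size 9 of the 10 were positive. The 12 tested hairpins of the run all had a negative log2 change, with a median of -0.48. mir-7234 had 50.2, 36.3, 163 and 244 CPM in controls and 50.4, 71.2, 103 and 49.3 after ethanol, which shows the 2 pairs of controls. Without control 4 only 7 of the 12 were negative, with a median of -0.011, and without control 3 there were 8. mir-881 had 243, 370, 859 and 1665 CPM in controls and 697, 559, 1001 and 363 after ethanol, with a log2 change of -0.26 (SE 0.63). mir-451a had 24.5, 73.2, 196 and 122 CPM against 210, 535, 254 and 11.8, and mir-142a had 51.2, 162, 180 and 93.9 against 422, 343, 458 and 50.1. Ethanol library 4 was below every control in both cases.

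Between Nrf2 LKO and Nrf2 flox, mir-196a-1 had the lowest p. It lies in the Hoxb gene cluster and had 10.8, 8.35, 19.2 and 23.5 CPM in flox and 0, 5.48, 11.2 and 0.682 CPM in LKO libraries. The groups overlapped through LKO library 3, and the log2 change was -1.76 (SE 0.62, unadjusted p = 0.0102, edgeR adjusted p = 0.266). Without that library it was -2.83 with an adjusted p of 0.0260. The summed epididymis markers did not overlap, at 699 to 848 unscaled CPM in flox and 169 to 556 in LKO, with 8 and 7 of the 9 markers counted. Their part in the result was not tested.

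Several hairpins of the run had higher values in LKO. mir-7234 had 36.0, 72.9, 35.9 and 27.0 CPM in flox and 87.3, 72.0, 43.1 and 78.8 CPM in LKO, a log2 change of 0.70 (SE 0.29, edgeR adjusted p = 0.306). mir-7210 had 0.63 (SE 0.27, edgeR adjusted p = 0.335). mir-7241 had 15.6, 14.5, 11.6 and 6.99 CPM against 21.8, 17.6, 16.3 and 23.9 CPM, without overlap, and a log2 change of 0.71 (SE 0.30, edgeR adjusted p = 0.338). Outside the run, mir-140 had 57.2, 99.4, 73.7 and 87.7 CPM against 120, 84.9, 82.5 and 157 CPM, with 0.48 (SE 0.25, edgeR adjusted p = 0.431). Of the 12 tested members of the run 9 had a positive log2 change, with a median of 0.29 beside 0.0085 over all features. With the total of all counts as library size 6 of 12 were positive, with a median of -0.026 beside -0.28 over all features. A change of library size shifts all features nearly alike. The place of the run beside that median is therefore not a second result. The leader mir-101b had 247, 153, 134 and 259 CPM in flox and 91.4, 32.9, 144 and 237 CPM in LKO, a log2 change of -0.65 (SE 0.44, edgeR adjusted p = 0.578).

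Of the 323 rows of this table, 36 were tested. By edgeR 0 passed an adjusted p of 0.05, beside 0.0508% of all features, and 0 by DESeq2. At an unadjusted p under 0.05 there were 4, beside 12.3% of all features. The log2 change was positive for 16 and negative for 20, and for 11 and 25 with the total of all counts as library size. Without overlap between the groups 1 was higher, mir-7241, and 1 lower, mir-30e, beside 2.85% and 3.87%. mir-30e, which was named after its values were seen, had a log2 change of -0.86 (SE 0.47, edgeR adjusted p = 0.455).

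**Figure D5:**
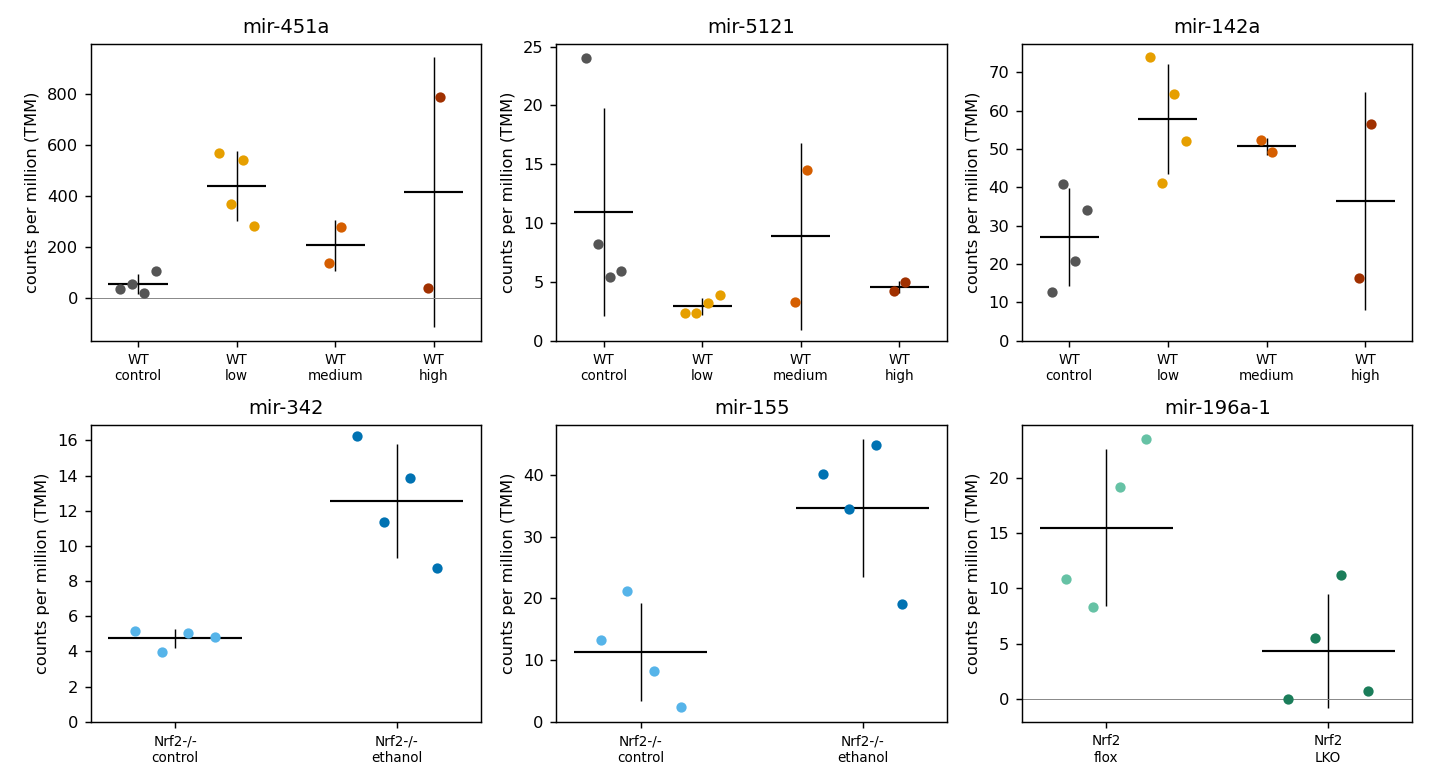
CPM by library of 6 hairpins with a low p in 1 of the comparisons: mir-451a, mir-5121 and mir-142a in the WT table, mir-342 and mir-155 in the Nrf2-/- table and mir-196a-1 in the floxed table; points are libraries, horizontal bars group means and vertical lines 1 SD. mir-451a is at 282 to 567 CPM in the low-dose libraries against 17.99 to 107 in controls, and 1 WT control of mir-5121 stands at 24.1.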

How the data were processed

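Small RNA of mouse sperm was prepared with Trizol and Qiaseq libraries, per the labels' protocols. The authors deposited raw counts per feature in 3 tables, with a feature class for each row. The aligner, counter and build are not given in the sources used here. Groups came from the labels. Members, lists and the run mir-7210 to mir-7243 were chosen with earlier results of these data known. Features of all classes except the miRNA class were fitted together per table with edgeR 4.0.16 in R 4.3.3 (trimmed mean of M-values, glmQLFit with its robust option, glmQLFTest). Benjamini-Hochberg adjustment ran over these features, with calls at an adjusted p of 0.05. The miRNA class, left out of the fit, the hairpin CPM and the shares of all features, held 4.26% (WT control 1) to 54.5% (Nrf2-/- ethanol library 1) of the counts. DESeq2 1.42.0, other library sizes, filters and left-out libraries were alternatives, and the script was tested on simulated data. Class shares used exact permutation tests over the 8 classes (scipy 1.17.1), and 95% intervals are Wilson intervals. Hairpin and mature names were matched without arm and copy number. Named hairpins were the 10 largest by mean share per table, the 5 lowest unadjusted p per comparison, the 5 highest and 5 lowest ratios among names with at least 100 hairpin counts, the 5 most abundant without a mature row, and the most abundant of each list described. Total counts per library ran from 1993933 to 11119711. The main fits did not treat the libraries as paired by replicate number.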

Additional observations from a re-analysis of the deposited data

Results flagged for a closer look

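Among 104 groups of 4 libraries checked, 7 had 1 library far from the other 3, and chance flags about 1 in 20 groups. Ethanol library 4 of the Nrf2-/- set held 0.0956% of its counts on hairpins, where the other 3 held 0.147% to 0.151%. The same library had mir-101b at 40.2 CPM, against 222 to 249 CPM. Nrf2 LKO library 1 had 4.11 hairpin counts per 1000 mature counts, against 5.42 to 5.57. WT control 1 had mir-5121 at 24.1 CPM, against 5.40 to 8.22 CPM, and also held the largest share of structural RNA. mir-7210 stood at 98.3 CPM in low-dose library 2 (others 56.7 to 62.7 CPM) and at 44.5 CPM in Nrf2 flox library 2 (others 31.6 to 32.4 CPM). mir-7214 stood at 88.9 CPM in ethanol library 3 of the Nrf2-/- set, against 31.7 to 40.8 CPM.

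For 4 of the 38 hairpins tested in both sets, all treated libraries lay on one side of the control mean at low dose in WT mice and on the other side after ethanol in Nrf2-/- mice. The share of all features with this pattern is not given here, so the 4 of 38 cannot be set against a background. The log2 changes were -0.66 (SE 0.34) and 0.29 (SE 0.44) for mir-677 and -1.56 (SE 0.93) and 0.28 (SE 0.52) for mir-3068. They were -0.73 (SE 0.80) and 0.74 (SE 0.42) for let-7f-1, and 0.22 (SE 0.22) and -0.85 (SE 0.63) for mir-7234. None of these changes passed in its own comparison. The difference between the 2 sets was not tested.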

How the results depend on the processing

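With the edgeR settings of the report no hairpin was called in the 4 comparisons. At low dose DESeq2 called 2 (mir-451a and mir-5121) and edgeR without the filter on low counts called 2. Between Nrf2 LKO and flox edgeR called 1 without the filter, and leaving out 1 library gave 0 to 1, the call coming without LKO library 3. The shares of all features called under these other settings are not given here, so these calls cannot be set against a background. The log2 difference in the hairpin-to-mature ratio at low dose was 0.37, and 0.74 with the same copy number required, 2.37 without names whose mature row was at 0 in a library and 0.81 without names with gaps, the last chosen after seeing the data. Without mir-451a, also chosen after seeing the data, the difference in class share was 0.0104 percentage points at low dose in place of 0.0446, and 0.0114 at medium and high dose in place of 0.0330. The log2 ratio difference at medium and high dose was 0.13, and 0.48, 1.499 and 0.45 under the 3 settings named for low dose. In the Nrf2-/- set it was -0.48, and 0.088 as a median over names. There the difference in class share, 0.00436 percentage points, was -0.165 with the miRNA class plus hairpins as the total and -0.00152 without mir-451a, and ran from -0.00361 to 0.0178 when 1 library was left out. The cause was not tested. Of the other values for these results, 138 kept their direction and call.

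Deviations of same-numbered libraries correlated between -0.491 and 0.416. The labels do not say whether the numbers pair libraries, and these few values cannot decide it. With the replicate number as a block, 0 hairpins were called in each of the 4 comparisons.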
